A study of Mus musculus with 9 samples.

Results

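The collagen genes of inguinal white fat were described in RNA-seq libraries of 9 mice, 1 library per mouse. Members were the rows of the count table whose symbol had the form of a collagen chain (Col, a type number, a and a chain number) and whose mean was at least 0.5 CPM (counts scaled to a common library total) over the 9 libraries. Of 44 such rows among 24539 genes, 40 were members, and they were split into 10 fibrillar collagens, 8 basement membrane collagens (types IV, XV and XVIII) and 22 other collagens. All 40 passed the filter on low counts and were tested. The limit fell between Col24a1 and Col26a1, with means of 0.833 and 1.04 CPM, and Col19a1 and Col2a1, with 0.462 and 0.165 CPM. Over the 9 mice the scaled levels ran from 0.225 to 1.29 CPM for Col24a1, from 0.168 to 1.81 CPM for Col26a1, from 0.112 to 1.01 CPM for Col19a1 and from 0 to 0.326 CPM for Col2a1, so all of these genes rest on few reads.

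The mice were C57BL/6 on a chow diet, either floxed WT or KO animals in which Fabp4-Cre had been used to delete Tet1, a gene for a DNA demethylating enzyme, in fat. They were housed at room temperature (RT) or placed at 4 °C for 4 h, with 2 mice of each genotype at RT, and 3 WT and 2 KO animals in cold. The sample labels state neither the age nor the sex of the single mice, and p-values measure the spread between these 9 mice. Fabp4-Cre is also known to be active in some cells other than adipocytes. The labels describe whole flash-frozen tissue, whereas the paper and the design text speak of fractionated adipocytes, and markers of endothelial, mural, macrophage and mammary epithelial cells were all present. In such bulk samples fewer cells of a type and less RNA per cell cannot be told apart. The labels also conflict for the KO mice 1781 and 1786. The sample title gives RT for 1781 and cold for 1786, while the columns of the table give cold and RT. The column names were followed, and for some results the values by title or without both mice are also given. Other results can change by title too.

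Libraries held 47605902 to 56292251 counts and correlated within groups at r = 0.987 to 0.993 on the log2 scale over genes, which are not independent replicates. Tet1 was not lower in the KO libraries, with 5.30 to 12.3 CPM against 3.87 to 5.33 CPM in WT, so these are called the libraries labelled KO. Counts per gene do not resolve the deleted exons. By qPCR the paper reported a strong loss of Tet1 mRNA in purified KO adipocytes, and no significant change in the non-adipocyte fraction of the fat. The highest Tet1 levels, 12.3 and 10.2 CPM, were in mice 1786 and 1781. The summed level of 10 adipocyte markers was 13030 CPM in mouse 1781 and 21675 to 30265 CPM in the others. Levels below are CPM scaled with TMM factors (edgeR's correction for library composition), and WT and KO stand for the labels.

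Collagens are secreted proteins built from 3 chains wound into a triple helix. Fibrillar types I, III and V form the load-bearing fibres between fat cells, type IV forms the sheet-like network of the basement membrane that surrounds every adipocyte and capillary, and type VI forms beaded microfilaments for which adipose tissue is known. Types XV and XVIII link basement membranes to the matrix, and their cleaved ends are known as inhibitors of vessel growth. Fibroblasts, adipocyte progenitors and mural cells are well known sources of fibrillar collagen, and adipocytes themselves contribute types IV and VI.

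Several chains that assemble together are also neighbours in the genome (GENCODE vM21, GRCm38, the assembly of mm10). Col4a1 (chromosome 8, 11198423 to 11312826, minus strand) and Col4a2 (11312805 to 11449287, plus strand) lie head to head, and their annotated first exons overlap by 22 bases. Col4a4 (chromosome 1, minus strand) and Col4a3 (plus strand) start 72 bases apart. Col4a6 and Col4a5 on chromosome X start 1309 bases apart. Col6a2 and Col6a1 lie on the minus strand of chromosome 10 with 85161 bases between them. Col3a1 and Col5a2, which belong to different collagen types, also end only 24614 bases apart on chromosome 1. Exons of other tested genes covered 22 bases of Col4a1 and of Col4a2, 36 bases of Col7a1 (Mir711) and 234 bases or 6.07% of Col9a3 (Tcfl5). No source used here gives the strand setting of the counting, so reads in these bases cannot be assigned to 1 gene.

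Upstream sequences are shown for the member of highest level (Col3a1), the 1 called member (Col28a1), the member of lowest p between genotypes (Col15a1) and the gap between the start sites of Col4a4 and Col4a3. They come from RefSeq (GRCm38.p6), which gave windows for 33 of the 40 members. Each runs 5′ to 3′ on the gene's strand and ends 1 base before the RefSeq start site, at chr1:45311288-45311537 (plus), chr6:8192618-8192867 (minus) and chr4:47207762-47208011 (plus), and the Col4a4 stretch of 71 bases is chr1:82586850-82586920 (minus). Capitals mark a match to any of the 4 motifs searched on both strands, which were CCAAT (the box of that name), the TATA motif as TATAAA, the GC box as GGGCGG, and the core of the CREB site as TGACG.
Col3a1: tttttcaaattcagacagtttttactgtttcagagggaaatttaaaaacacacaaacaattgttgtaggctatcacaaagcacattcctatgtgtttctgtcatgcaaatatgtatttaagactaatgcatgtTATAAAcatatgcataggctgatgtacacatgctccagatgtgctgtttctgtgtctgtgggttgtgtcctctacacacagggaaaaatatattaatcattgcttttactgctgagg
Col28a1: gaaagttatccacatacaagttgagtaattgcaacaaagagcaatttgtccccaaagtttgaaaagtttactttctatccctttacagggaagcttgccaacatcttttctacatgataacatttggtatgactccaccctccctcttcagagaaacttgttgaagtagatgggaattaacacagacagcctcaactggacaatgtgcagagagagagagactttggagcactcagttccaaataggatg
Col15a1: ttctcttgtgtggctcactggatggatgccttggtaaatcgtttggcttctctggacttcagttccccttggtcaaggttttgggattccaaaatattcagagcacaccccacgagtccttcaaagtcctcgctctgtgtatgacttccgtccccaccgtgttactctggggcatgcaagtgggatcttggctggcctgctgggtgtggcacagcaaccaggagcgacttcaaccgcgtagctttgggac
Col4a4 to Col4a3: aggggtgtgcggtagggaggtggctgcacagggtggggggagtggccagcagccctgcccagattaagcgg

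Of these 4 stretches only that of Col3a1 held a match, a TATAAA that begins 117 bases before the start. Over the 36 windows of 250 bases upstream that the members have, GGGCGG was found in 22, CCAAT in 13, TATAAA in 4 and TGACG in 4. Among 32851 windows of the same length for all genes the shares were 32.7%, 33.9%, 12.4% and 17.8%. A match is a description of the letters, not of a bound site.

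The collagens made up a visible part of each library. The 40 members took 1.44% of all counts in mouse 1782 and 2.39% in mouse 1781, both KO in cold, and 1.66% to 2.33% in the 7 others. Fibrillar collagens gave 60.6% to 71.9% of the collagen counts, basement membrane collagens 16.8% to 26.7% and the others 9.87% to 12.7%. Just 3 genes, Col3a1, Col1a1 and Col1a2, held 52.6% to 64.4%. Per length, as RPKM (reads scaled to gene length and library total, deposited) averaged over both WT mice at RT, Col3a1 stood at 963, Col1a2 at 458 and Col1a1 at 437. They were followed by Col4a1 at 255, Col4a2 at 156, Col6a1 at 131 and Col15a1 at 97.4 RPKM. At the lower end Col25a1 had 0.0898 and Col24a1 0.0722 RPKM. Col1a2 and Col1a1 (465 and 451 against 441 and 434 RPKM) and Col5a1 and Col5a3 (54.5 and 65.3 against 56.8 and 62.5 RPKM) were neighbours in this order, and the values of the latter pair overlapped.

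The summed level of the fibrillar collagens was 12123 and 12312 CPM in WT at RT and 10804 and 11681 CPM in KO at RT. In cold it was 13057, 13992 and 15486 CPM in WT and 10295 and 15930 CPM in KO. The cold WT mice therefore lay above the WT mice at RT, while the cold KO pair held both the lowest and the highest of the 9 sums. Basement membrane collagens summed to 3648 and 3669 CPM in WT at RT and 4205, 4276 and 5751 CPM in WT in cold. In KO they summed to 3490 and 3883 CPM at RT and 3453 and 3716 CPM in cold, so all 3 cold WT mice lay above both cold KO mice. The other collagens gave 2012 and 2154 CPM in WT at RT, 2247, 2548 and 2744 CPM in WT in cold, 1870 and 1935 CPM in KO at RT and 1505 and 2509 CPM in KO in cold. No test was made over these sums.

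**Figure D1:**
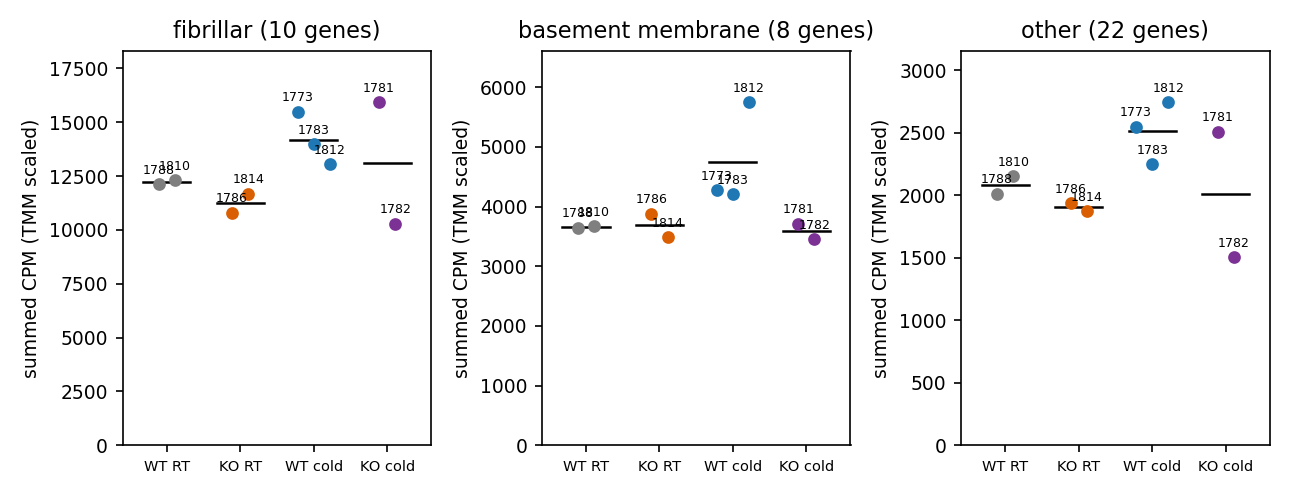
Summed CPM (TMM scaled) of the fibrillar, basement membrane and other collagens in each mouse, by group, with the mouse number above each point and the group mean as a line. The 2 KO mice in cold lie at 10295 and 15930 CPM for the fibrillar collagens, the lowest and the highest of the 9.

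Genotype was compared first, as the question of the study. None of the 40 collagens was called (adjusted p under 0.05 and a fold change above 1.5, edgeR's quasi-likelihood test with Benjamini-Hochberg adjustment over 16745 genes) between KO and WT at RT, in cold, or on average over both housings. At RT, 0.0358% of all genes were called, in cold 0.0776% and on average 0.125%. At an unadjusted p under 0.05 there were 0 members higher and 1 lower at RT, 1 higher and 3 lower in cold, and 4 higher and 2 lower on average. Of the 16745 genes, 448 were higher and 791 lower at RT at that p, 556 and 464 in cold, and 861 and 1085 on average. DESeq2's Wald test called 0, 1 and 0 members, the 1 being Col15a1 in cold, and the edgeR shares above do not apply to it.

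Col15a1 had the lowest p of the collagens between genotypes. It read 392 and 346 CPM in the cold KO mice 1781 and 1782 and 515, 558 and 659 CPM in the cold WT mice, and at RT 552 and 492 CPM in KO and 535 and 545 CPM in WT. The cold KO pair was thus below all 7 other mice, and the groups at RT overlapped. The log2 fold change of KO against WT in cold was -0.65 (SE 0.14, n = 2 and 3), with an unadjusted p of 0.00177 and an adjusted p of 0.433 in the edgeR model. DESeq2 gave -0.65 with an adjusted p of 0.00203. At RT it was -0.05 (SE 0.16). Col15a1 also had the lowest p of the members for the interaction of genotype with housing, -0.60 (SE 0.21), at an adjusted p of 1.00 in edgeR. No member was called in that interaction, as for 0% of all genes, with 1 member at p under 0.05 in each direction and 0 called by DESeq2. At that p, 313 of all 16745 genes had a positive interaction and 145 a negative one. By sample title the cold KO effect on Col15a1 was smaller, at -0.36.

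The type VI chains were next. Col6a3, whose C-terminal fragment is known as endotrophin, stood at 442 and 243 CPM in cold KO against 578, 515 and 783 CPM in cold WT, and at 315 and 411 CPM in KO against 442 and 560 CPM in WT at RT. KO lay below WT in both housings. The mean log2 fold change was -0.67 (SE 0.21), with an adjusted p of 0.325 in edgeR, and it ran from -0.91 without mouse 1781 to -0.48 without mouse 1782. Col6a2 showed the same order, with 686 and 422 CPM in KO and 749, 716 and 849 CPM in WT in cold, and 470 and 537 CPM in KO and 562 and 547 CPM in WT at RT. These were the only 2 members (5%) lower without overlap in both housings, and 0 were higher, where 4.41% and 3.67% of all genes did so. With housing by sample title, mouse 1781 counts as KO at RT, and both genes then overlapped with WT at RT. Col6a1, the third main chain, read 705 and 441 CPM in cold KO, 693, 616 and 747 CPM in cold WT, 461 and 518 CPM in KO at RT and 546 and 539 CPM in WT at RT. Its cold groups overlapped, and its mean log2 fold change was -0.20 (SE 0.15).

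Of the further type VI chains, Col6a6 was lower in KO at RT, with 9.13 and 9.60 CPM against 13.6 and 14.5 CPM. It had the lowest p of the members there, at -0.58 (SE 0.21) on the log2 scale and an adjusted p of 0.628 in edgeR. When housing followed the titles, its RT groups overlapped and the effect was -0.21. In cold its groups overlapped, at 14.6 and 11.4 CPM in KO and 11.3, 9.28 and 14.1 CPM in WT. Col6a5 was at 1.12 and 1.34 CPM in KO and 1.61 and 2.83 CPM in WT at RT, and at 3.76 and 2.55 CPM in KO and 2.16, 1.92 and 4.23 CPM in WT in cold. Its RT effect of -0.85 (SE 0.46) turned to 0.20 when housing followed the titles, and ran from -1.21 without mouse 1788 to -0.39 without mouse 1810.

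The 3 fibrillar chains of highest level lay lower in KO at RT and overlapped between genotypes in cold. Col3a1 stood at 7294 and 4871 CPM in the cold KO pair and in the cold WT mice at 7387, 6403 and 6092 CPM. At RT it was 5009 and 5256 CPM in KO and 5618 and 5548 CPM in WT. Col1a1, the α1 chain of type I collagen, read 3441 and 2176 CPM in cold KO, 3268, 3099 and 2637 CPM in cold WT, 2439 and 2547 CPM in KO at RT and 2661 and 2750 CPM in WT at RT. Col1a2, its α2 chain, followed with 3533 and 2196 CPM, 3214, 2899 and 2615 CPM, 2085 and 2368 CPM, and 2474 and 2517 CPM in the same order. In KO at RT all 3 genes were below both WT mice, and in cold the KO mice overlapped with WT. They were the only fibrillar collagens lower without overlap at RT, 3 of 10 (30%), where 23.1% of all genes were. Another 2 (20%) were higher without overlap, where 19.8% of all genes were, and the median effect of the 10 was 0.02. With housing by sample title, the 3 genes overlapped with WT at RT and lay below WT in cold. Mean log2 fold changes of KO against WT were -0.12 (SE 0.16) for Col3a1, -0.11 (SE 0.16) for Col1a1 and -0.09 (SE 0.16) for Col1a2.

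The main network chains of the basement membrane kept to one level in 3 of the groups. Col4a1 was at 1756 and 1773 CPM in WT at RT, 1859 and 1647 CPM in KO at RT and 1783 and 1752 CPM in KO in cold, and at 2116, 2036 and 2991 CPM in WT in cold. Col4a2 was at 1039 and 1062 CPM, 1093 and 1031 CPM, and 1116 and 1079 CPM in the same 3 groups, and at 1254, 1256 and 1790 CPM in WT in cold. For both genes the cold WT mice lay above all 6 others, with mouse 1812 far above the other two. KO against WT in cold gave -0.43 (SE 0.19) and -0.39 (SE 0.18), with adjusted p of 0.836 and 0.845 in edgeR.

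**Figure D2:**
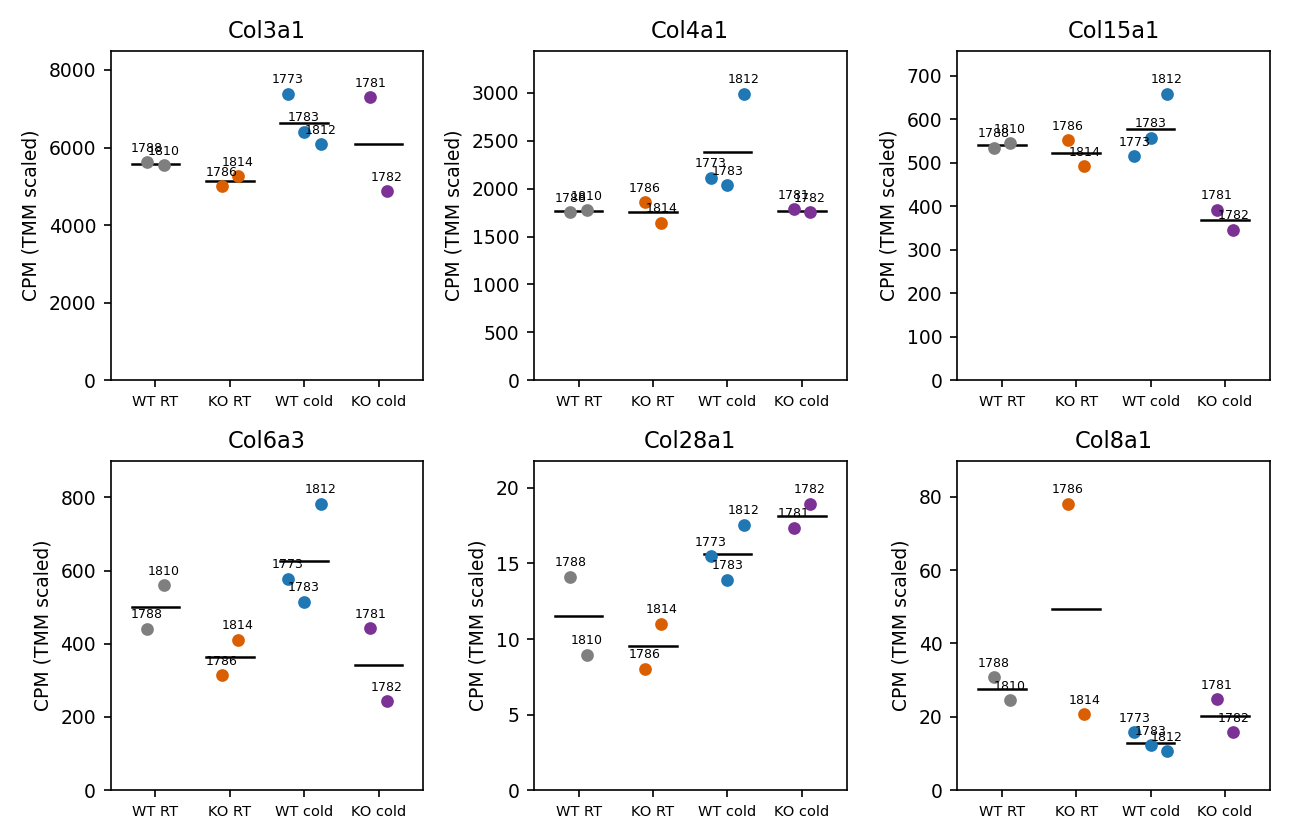
CPM (TMM scaled) of Col3a1, Col4a1, Col15a1, Col6a3, Col28a1 and Col8a1 in each mouse, by group, with the mouse number at each point and the group mean as a line. Col15a1 is at 392 and 346 CPM in the cold KO mice and at 492 CPM or more in the other 7, and Col8a1 is at 78.1 CPM in the KO RT mouse 1786 and at 30.8 CPM or less elsewhere.

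Several rare collagens pointed the other way in KO, without a call. On average over both housings 20 of the 40 members had positive KO effects and 20 negative ones. Col9a3, a chain of the fibril-associated type IX, read 22.5 and 6.52 CPM in KO at RT and 5.77 and 8.63 CPM in WT at RT, and 12.4 and 7.72 CPM in KO and 7.34, 4.46 and 3.52 CPM in WT in cold. Only mouse 1786 stood high at RT, and the mean log2 fold change of 0.99 (SE 0.38, edgeR adjusted p of 0.383) fell to 0.42 without it. Col4a6, a minor type IV chain, had 57.3 and 30.8 CPM in KO and 29.1 and 29.5 CPM in WT at RT, and 43.3 and 27.1 CPM in KO and 30.5, 24.4 and 23.1 CPM in WT in cold. Its effect at RT went from 0.59 (SE 0.30) to 0.08 without mouse 1786. Col23a1, a membrane-bound collagen, had 10.9 and 6.62 CPM in cold KO and 6.11, 4.66 and 5.32 CPM in cold WT, and 9.50 and 6.90 CPM in KO and 7.40 and 7.83 CPM in WT at RT. Its cold effect of 0.70 (SE 0.24, edgeR adjusted p of 0.744) fell to 0.30 without mouse 1781.

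The same split appeared by level, at a limit of 100 CPM that was chosen after the values had been seen. Of the 15 members with a mean of at least 100 CPM, 14 had a negative mean KO effect (median -0.16). Of the 25 members under 100 CPM, 19 had a positive one (median 0.41), where the median of all genes was -4.7e-05. Without both mice of conflicting labels the medians were -0.28 (15 of 15 negative) and 0.05 (15 of 25 positive), and without mouse 1782 the first was -0.03 (8 of 15 negative). Counts of members whose groups did not overlap were 5 higher (12.5%) and 10 lower (25%) at RT, where 19.8% and 23.1% of all genes did so, and 6 higher (15%) and 5 lower (12.5%) in cold, where it was 10.0% and 9.07%. By class the medians of KO against WT over both housings were -0.10 for the fibrillar, -0.11 for the basement membrane and 0.18 for the other collagens. Without single mice they ran from -0.28 (without 1781) to 0.05 (without 1782), from -0.20 (without 1783) to 0.00016 (without 1782) and from 0.09 (without 1786) to 0.39 (without 1814).

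Marker lists of cell types were read beside these values, and not all of them leaned to one side. On average over both housings the median KO effects were -0.08 for endothelial, -0.09 for mural and 0.07 for mammary epithelial markers. All 10 adipocyte markers had negative KO effects in cold (median -0.28, none called), and 3 of 10 did at RT. All 12 fibroblast and progenitor markers (collagens left out) had negative KO effects at RT, where 8523 of all 16745 genes did. In cold it was 9 of 12, against 8116 of all genes, and on average 11 of 12, against 8374. None was called, and the summed levels were 7044 to 8669 CPM in KO and 8424 to 10019 CPM in WT. By sample title the sums at RT were 8669 and 8161 CPM in KO and 8424 and 9277 CPM in WT, which overlapped. All 9 macrophage markers were lower without overlap in KO at RT, where 23.1% of all genes were, with sums of 460 and 685 CPM against 880 and 1226 CPM, and none was called. In cold their sums overlapped, from 573 to 999 CPM in KO and 738 to 965 CPM in WT. With housing by sample title this turned around. The macrophage sums in KO were then 999 and 685 CPM at RT, which overlapped with WT, and 573 and 460 CPM in cold, below WT. The 7 brown and beige adipocyte markers summed to 945 and 1496 CPM in KO against 430 and 511 CPM in WT at RT, and to 1944 and 2825 CPM against 568 to 780 CPM in cold. Mesothelial markers, which were scarce throughout, summed to 1.29 to 3.41 CPM in KO and 1.99 to 7.56 CPM in WT. The part of these markers in the collagen values was not tested.

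**Figure D3:**
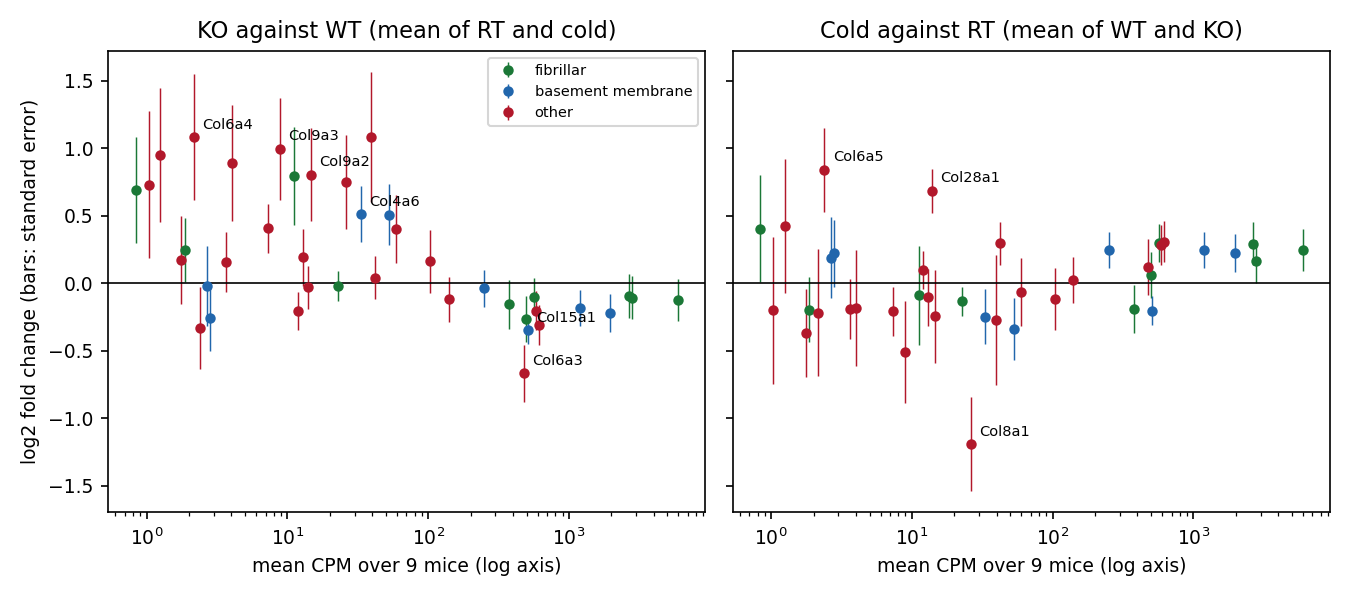
Log2 fold change with its standard error for each of the 40 collagens against its mean CPM (log axis), for KO against WT and for cold against RT, coloured by class and named where the unadjusted p is under 0.05. The genes of at least 100 CPM lie near or below 0 for KO against WT (14 of 15 negative) and mostly above 0 for cold (12 of 15 positive).

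Cold for 4 h was compared next. Across both genotypes Col28a1 was the only collagen called, and it rose. A share of 3.15% of all genes was called in that comparison, 0.370% in WT alone and 0.334% in KO alone, where 0 members were called by edgeR. At p under 0.05 there were 2 members higher and 1 lower in WT, 3 higher and 2 lower in KO, and 2 higher and 1 lower on average. Of all 16745 genes, 1012 were higher and 1194 lower in WT at that p, 1451 and 1153 in KO, and 2034 and 1909 on average. Of the members, DESeq2 called 0 in WT, Col28a1 in KO, and Col28a1 and Col8a1 on average, and the edgeR shares above do not apply to these calls. The paper's own edgeR table also lists Col28a1, with an adjusted p under 0.05 for cold against RT in KO.

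Col28a1 encodes a collagen with von Willebrand factor domains, known in mouse from the basement membranes around glial cells of peripheral nerve. It lies on chromosome 6 from 7997808 to 8192617 on the minus strand. It read 14.1 and 8.95 CPM in WT at RT, 8.05 and 11.02 CPM in KO at RT, 15.5, 13.9 and 17.6 CPM in WT in cold and 17.4 and 19.0 CPM in KO in cold. Both cold KO mice were above both KO mice at RT, while the WT mouse 1788 at RT reached the lower end of the cold WT mice. The log2 fold change was 0.69 (SE 0.16) with an adjusted p of 0.0472 in edgeR. By genotype it was 0.44 (SE 0.22) in WT and 0.93 (SE 0.24) in KO, and the difference of 0.49 (SE 0.32) was not called. Without single mice the value ran from 0.54 to 0.87 with adjusted p from 0.0392 to 0.151, and the call held only without mouse 1788. By sample title it was 0.18 (adjusted p of 0.950) and without both mice of conflicting labels 0.61 (adjusted p of 0.159). Summed Schwann cell markers were 223 and 246 CPM in WT at RT, 122 and 216 CPM in KO at RT, 171 to 192 CPM in WT in cold and 212 and 230 CPM in KO in cold, and their part in the Col28a1 values was not tested.

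Col8a1, a short-chain collagen that forms networks in vessel walls and under the corneal endothelium, showed the largest mean fold change of the members in cold over both genotypes. It read 30.8 and 24.6 CPM in WT at RT and 15.8, 12.2 and 10.6 CPM in WT in cold, which did not overlap, and 78.1 and 20.8 CPM in KO at RT and 24.8 and 15.8 CPM in KO in cold, which did. The mean log2 fold change was -1.19 (SE 0.35) with an adjusted p of 0.0850 in edgeR and -1.20 with 0.00416 in DESeq2. Mouse 1786 decided its size. Without that mouse the value was -0.57, by sample title it was -0.03, and without the other KO mouse at RT, 1814, it was -1.52 and called (adjusted p of 0.0146).

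In WT the abundant chains tended upward in cold. Col4a2 changed by 0.45 (SE 0.18) and Col6a2 by 0.48 (SE 0.20), the lowest p among the members beside Col8a1, at adjusted p of 0.344 and 0.365 in edgeR. Without mouse 1812 the change of Col4a2 was 0.26. Of the 40 members 9 (22.5%) were higher without overlap and 2 (5%) lower, where 15.7% and 17.7% of all genes did so, and these included Col3a1, Col1a2, Col4a1, Col4a2, Col6a1 and Col6a2. In KO it was 5 higher (12.5%) and 2 lower (5%), against 23.3% and 20.7% of all genes. There Col6a5 had a log2 fold change of 1.36 (SE 0.46) and Col15a1 of -0.50 (SE 0.16), with edgeR adjusted p of 0.216 and 0.189, and by sample title the signs turned, to -0.48 and 0.02. No member was shifted without overlap in the same direction in both genotypes, which 8.95% of all genes did upward and 8.93% downward. Median changes over both genotypes were 0.11 for the fibrillar, 0.21 for the basement membrane and -0.11 for the other collagens, and 0.00 for all genes. Without single mice they ran from -0.09 (without 1781) to 0.27 (without 1782), from 0.03 (without 1781) to 0.25 (without 1783) and from -0.28 (without 1814) to 0.20 (without 1786), so the sign for the fibrillar and the other collagens rested on single mice.

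A few libraries held most of the highest and lowest values of the members. Mouse 1786 (KO at RT by column) had the highest value of 13 of the 40 members, 10 of them in the class of other collagens, and mouse 1781 (KO in cold by column) of 12. Mouse 1812 (WT in cold) had the highest value of 10 and the lowest of 13, and mouse 1782 the lowest of 13. Col7a1, Col17a1 and Col11a1 are given as examples chosen after their values were seen. Col7a1, which makes the anchoring fibrils under epithelia, had 94.5 CPM in 1786, 65.8 CPM in 1781, 9.80 CPM in 1812 and 18.5 to 44.4 CPM in the 6 others. Col17a1, a transmembrane collagen of epithelial hemidesmosomes, was at 90.3 CPM in both 1786 and 1781 and at 40.7 to 60.5 CPM in the other 7. Col11a1, a minor fibrillar chain, was at 20.3 and 19.1 CPM in those mice, at 13.3 CPM in mouse 1773 and at 4.82 to 10.4 CPM elsewhere. Both mice are those of conflicting labels and had the highest Tet1. Their summed mammary epithelial markers were 1808 and 2523 CPM, against 2023 to 2679 CPM in the others, and the cause of the shared pattern was not tested.

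**Figure D4:**
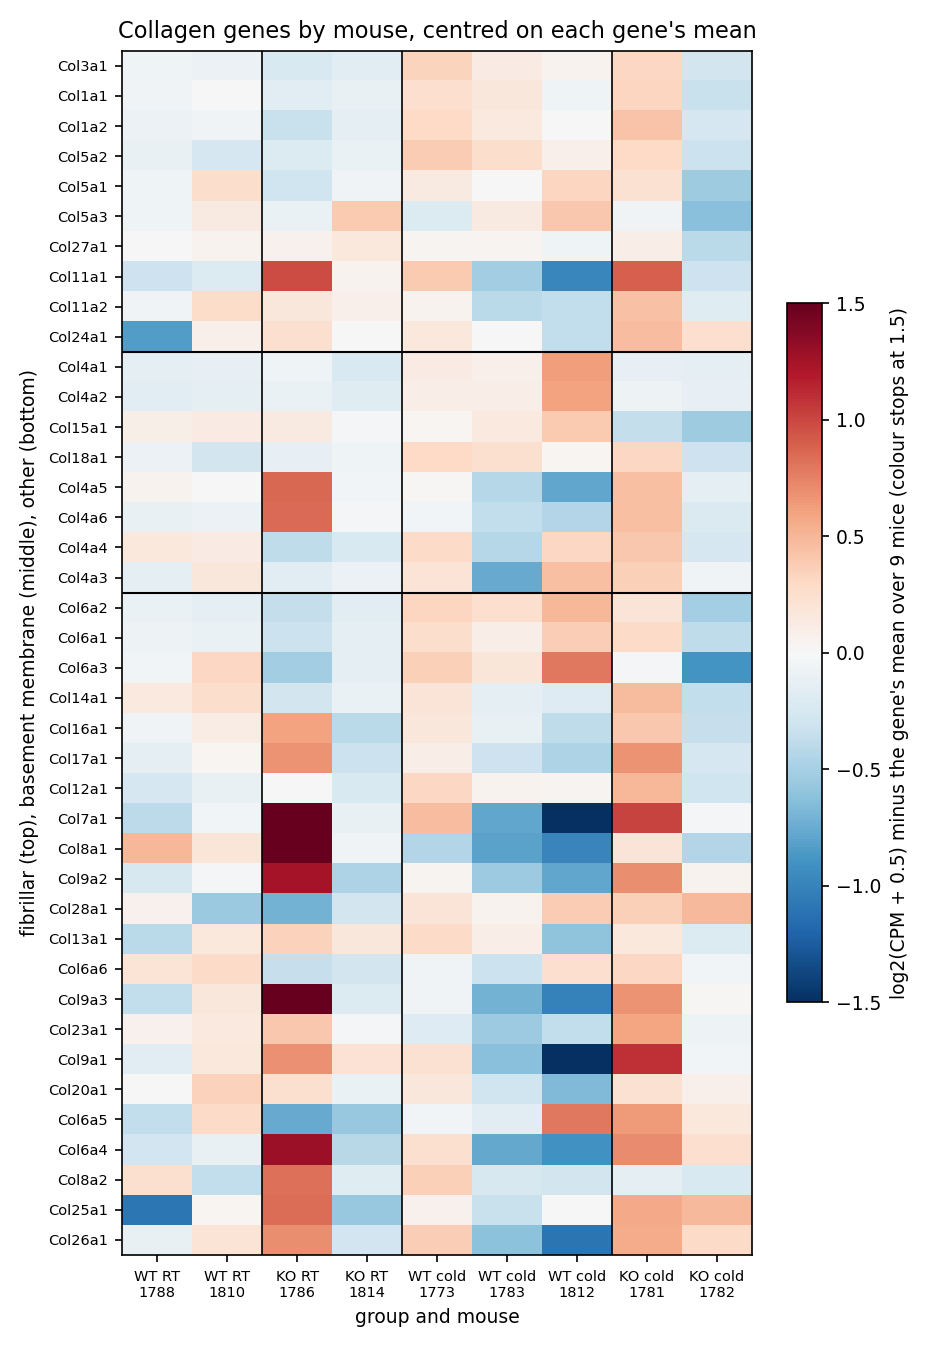
Level of each of the 40 collagens in each of the 9 mice as log2(CPM + 0.5) minus the gene's mean, with genes in rows by class and falling level and mice in columns by group. Mouse 1786 holds the highest value of 13 genes and mouse 1781 of 12.

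Ratios between paired chains differed in how far they varied across mice. Per length, Col4a1 was 1.55 to 1.65 times Col4a2 in all 9 mice, a spread of 1.07 between the highest and the lowest ratio. Col1a1 was 0.858 to 1.03 times Col1a2, and Col3a1, which forms a molecule of its own, was 2.15 to 2.46 times Col1a1. In type VI, Col6a1 was 1.30 to 1.58 times Col6a2. Col6a3 was 0.202 times Col6a1 in mouse 1782 and 0.385 times in mouse 1812, a spread of 1.90. This last ratio was 0.202 to 0.291 in the KO mice and 0.297 to 0.385 in the WT mice, a difference that was not tested. Col5a1 was 0.572 to 0.990 times Col5a2, with the highest ratio in the WT RT mouse 1810. The minor type IV pairs were looser at 1.28 to 1.83 for Col4a5 over Col4a6 and 0.636 to 1.04 for Col4a3 over Col4a4, the pair whose 71 bases between start sites are printed above and whose levels were only 1.33 to 3.78 CPM. Relative lengths came from the deposited counts and RPKM.

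**Figure D5:**
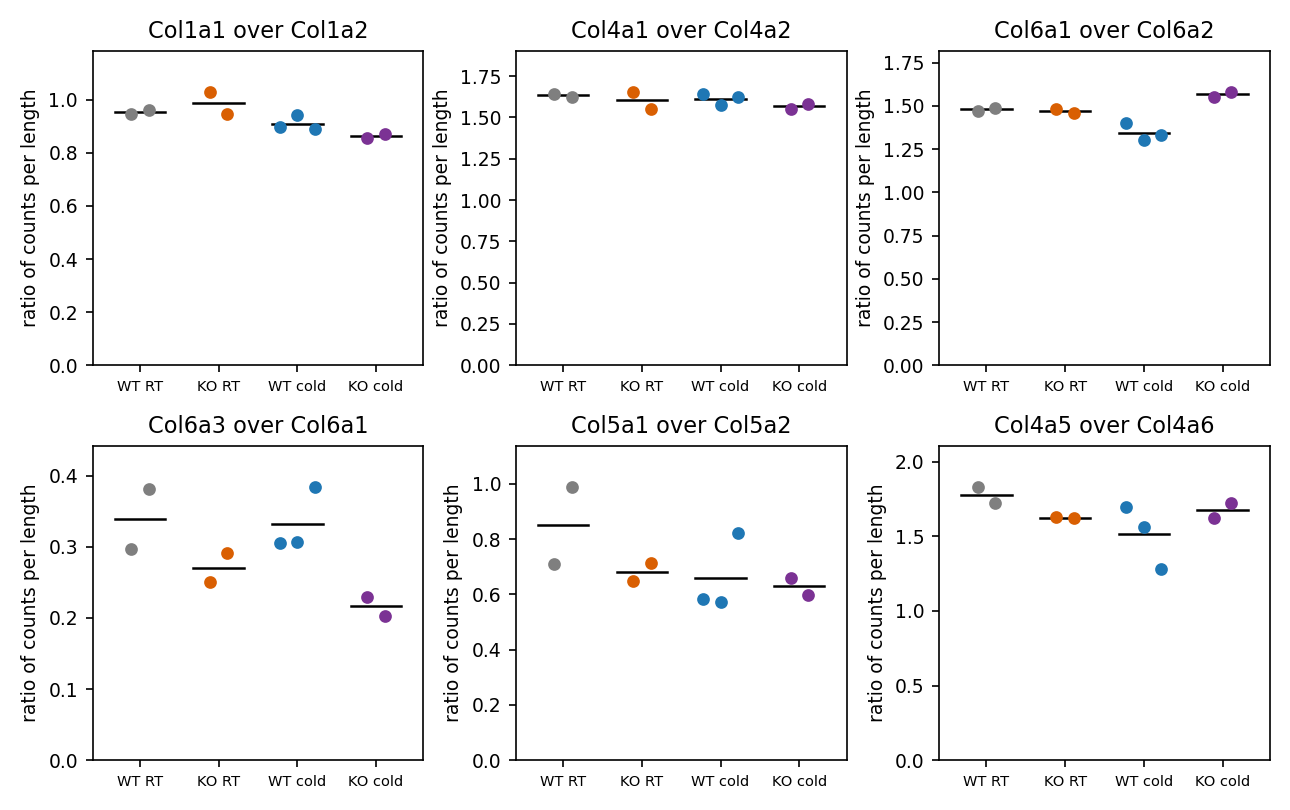
Ratio of counts per length between paired collagen chains in each mouse, by group, with the group mean as a line. The ratio of Col4a1 to Col4a2 stays between 1.55 and 1.65, and that of Col6a3 to Col6a1 runs from 0.202 to 0.385.

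Genes that make, fix, bind and remove collagen were read from 9 lists with 105 tested genes of 107. Between genotypes none was called by edgeR in the fit made here. At p under 0.05 there were 3 higher and 10 lower in KO at RT, 4 and 18 in cold and 6 and 25 on average, and DESeq2 called 0 and 3, 1 and 2, and 1 and 4. Of all 16745 genes, 448 and 791 reached that p at RT, 556 and 464 in cold, and 861 and 1085 on average. The paper's own edgeR lists, at the same limits of adjusted p and fold change, do hold some of the list genes. They have Serpinh1 and Timp1 lower and Mmp11 higher in cold KO, and Tgm2, Thbs2 and Mmp9 lower in KO at RT. In cold against RT, edgeR called 4 list genes higher and 1 lower over both genotypes and 0 in either genotype alone. In WT 14 higher and 3 lower reached p under 0.05, against 1012 and 1194 of all genes. In KO it was 17 and 7, against 1451 and 1153 of all genes. DESeq2 called 2 and 1 list genes in WT and 5 and 2 in KO. No share of all genes is given for DESeq2, so its counts cannot be set against a background.

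The folding and modification list, 19 genes for hydroxylases, glycosyltransferases and chaperones of the endoplasmic reticulum, leaned lower in KO in both housings. At RT 17 of 19 had negative effects (median -0.22) and 10 (52.6%) lay below WT without overlap, where 23.1% of all genes did so. In cold 17 of 19 had negative effects and 16 (84.2%) lay below WT without overlap, where 9.07% of all genes did so. The median in cold was -0.38 and none was called by edgeR. At p under 0.05 there were 13 lower, against 464 of all 16745 genes, and only Serpinh1 was called by DESeq2. Serpinh1, the collagen chaperone HSP47, stood at 395 and 326 CPM in cold KO, 515, 604 and 681 CPM in cold WT, 498 and 618 CPM in KO at RT and 629 and 728 CPM in WT at RT. KO lay below WT in both housings, and the mean log2 fold change was -0.51 (SE 0.13) at an edgeR adjusted p of 0.275. Plod3, a lysyl hydroxylase and glycosyltransferase, was at 70.5 and 81.1 CPM in cold KO and 89.4, 109 and 116 CPM in cold WT. Colgalt2, a galactosyltransferase, went the other way, with 14.1 and 9.93 CPM in KO and 6.42 and 7.32 CPM in WT at RT. The median of the list in cold was -0.50 by sample title, -0.42 without both mice of conflicting labels and -0.23 without mouse 1782, so the negative sign was shared by these settings. The fibroblast and progenitor markers had a median of -0.60 at RT and -0.22 in cold, and their part in the values of this list was not tested.

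The 5 genes called in cold, of 105 tested, stood in 3 lists, where 3.15% of all genes were called. Lox, the lysyl oxidase that cross-links collagen, was at 70.9 and 86.0 CPM in WT at RT and 127, 91.1 and 140 CPM in WT in cold, and at 91.4 and 79.2 CPM in KO at RT and 160 and 137 CPM in KO in cold. It rose by 0.70 (SE 0.14) with an adjusted p of 0.0282 in edgeR. The metalloproteinase inhibitors gave 3 called genes of 5, against the same 3.15% of all genes. Timp3 rose by 0.90 (adjusted p of 0.0191), from 512 to 675 CPM over the 4 mice at RT to 791 to 1279 CPM over the 5 in cold. Timp4 rose by 1.14 (adjusted p of 0.0210), from 23.2 to 65.8 CPM to 72.3 to 111 CPM. Reck, a membrane-anchored inhibitor, rose by 0.67 (adjusted p of 0.0281), from 33.7 to 45.9 CPM to 46.1 to 82.9 CPM without meeting. Tll1, a protease that trims procollagen, fell by 0.65 (adjusted p of 0.0407), from 5.28 to 7.38 CPM to 3.69 to 4.36 CPM. None of these calls held by sample title or without both mice of conflicting labels, where Lox, for example, had 0.27 and 0.69. The call of Tll1 was also lost without any 1 of the 9 mice, those of Lox and Reck without 6 of them in turn, that of Timp3 without 1786, 1788 or 1810, and that of Timp4 without 1786 or 1810.

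No further list gene was called by edgeR in the fit made here. Tgm2, a transglutaminase that cross-links matrix proteins, had 470 and 955 CPM in KO against 1941 and 2970 CPM in WT at RT, and 1350 and 1874 CPM against 2304, 2713 and 2447 CPM in cold, lower in KO in both housings (called by DESeq2 at RT and on average). Of the basement membrane partners, Lama4, a laminin chain, was lower in cold in both genotypes without overlap, where 8.93% of all genes were. Its change was -0.49 (SE 0.11, edgeR adjusted p of 0.0428), under the fold limit. Nid1, the nidogen that joins laminin to type IV collagen, was at 0.33 (SE 0.10). Of 9 tested collagen receptors Adgrg1, a receptor for type III collagen, was at 0.51 (SE 0.10) in cold with an adjusted p of 0.0277, also under the fold limit. Itga2, a collagen-binding integrin chain, was at -0.84 (SE 0.33) and its partner Itgb1 at 0.19 (SE 0.10) in cold. Among the collagen-degrading enzymes Mmp2, a gelatinase, was at a level of 308 to 546 CPM. On the log2 scale Mmp3, a stromelysin, differed by 0.56 (SE 0.19) between cold and RT and Mmp11, another stromelysin, by 0.76 (SE 0.24) between KO and WT, neither of them called by edgeR. In cold alone Mmp11 differed by 1.25 (SE 0.32) between KO and WT without overlap, with an edgeR adjusted p of 0.627, and DESeq2 called it higher. Among the 17 genes of TGF-beta signalling Tgfbr3, the co-receptor betaglycan, lay higher in cold in both genotypes without overlap, where 8.95% of all genes did so. It had 197 to 228 CPM at RT and 254 to 308 CPM in cold. Smad7, an inhibitor of the pathway, was at 15.8 to 18.5 CPM at RT and 20.3 to 23.4 CPM in cold (0.35, SE 0.08, edgeR adjusted p of 0.0499), under the fold limit. Of the fibril-associated proteins Sparc, a collagen-binding glycoprotein, had the highest mean count and ran from 2488 to 3727 CPM. Thbs2, a thrombospondin, was at 115 and 117 CPM in KO against 204 and 214 CPM in WT at RT, and its cold groups overlapped. Podn, a small leucine-rich proteoglycan, was at 28.5 to 45.3 CPM in cold and 46.4 to 51.4 CPM at RT. Adamts2, the protease that removes the N-propeptide of procollagen, was at 121 and 156 CPM in KO against 175 and 240 CPM in WT at RT. With housing by sample title, the KO mice at RT and in cold overlapped for Lama4, Adgrg1, Tgfbr3, Smad7 and Podn. The genotypes then also overlapped for Mmp11 in cold and for Thbs2 and Adamts2 at RT.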

How the data were processed

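RNA-seq was analysed from inguinal white fat of 9 mice, 1 library each. According to the paper, the authors aligned BGISEQ reads to mm10 with STAR, kept uniquely mapped reads, removed mitochondrial reads and deposited the featureCounts counts per gene used here. The submitters' notes name no versions, annotation or strand setting. RPKM values deposited by the authors were used only for levels per length in WT at RT and for length ratios, and 2 deposited value columns (RPKM of the mice of conflicting labels) were not used.

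Groups followed the column names, since titles and columns conflict for 2 mice. Counts were filtered with filterByExpr (16745 of 24539 genes kept), scaled by TMM (factors 0.944 to 1.08) and fitted with edgeR 4.0.16 (quasi-likelihood, robust) in R 4.3.3 over 9 libraries and 4 groups. Genes were called at a Benjamini-Hochberg adjusted p under 0.05 and a fold change above 1.5, and the interaction at adjusted p alone. The SE is the absolute log2 fold change over the square root of F. Alternatives were DESeq2 1.42.0, its size factors, no filter, scaling without collagens, only the libraries compared, adjusted p alone, housing by title, leaving out each mouse and leaving out both mice of conflicting labels. For calls under these alternatives, DESeq2 included, no share over all genes is given. The limit of 100 CPM and the alternatives for it and for the matrix gene lists were chosen after seeing the data. The fit was tested on simulated counts. Members and lists were chosen with earlier results of these data known. Named genes were the 3 members of highest mean CPM in each class, every called member, the 3 of lowest p in each of 6 comparisons, that of lowest p in the interaction, Col28a1, and the 2 on each side of the limit. Of each matrix list they were the called genes, or otherwise the 2 of lowest p over both mean comparisons and the 1 of highest mean CPM. Of the genes this rule names, 1 is not reported here.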

Additional observations from a re-analysis of the deposited data

How the results depend on the processing

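With housing by sample title, signs turned for Col6a5 in KO against WT at RT (0.20), for Col28a1 (-0.0732), Col15a1 (0.0222) and Col6a5 (-0.48) in cold against RT in KO, and for Col6a5 in cold on average (-0.0811), as the title exchanges the housing of 2 KO mice. The median log2 fold change of the 40 collagens in KO against WT in cold was 0.16, and -0.16 both by title and without both mice of conflicting labels. Leaving out single mice took it from -0.16 (without 1781) to 0.36 (without 1782), and the median in cold against RT in KO from -0.29 (without 1781) to 0.37 (without 1782). The DESeq2 Wald test called 1 collagen in KO against WT in cold, 1 in cold against RT in KO and 2 in cold on average. The 1 call of edgeR in cold on average, Col28a1, became 0 with DESeq2 size factors (adjusted p of 0.0509), by title and without both mice, and 0 to 1 without single mice. No paired analysis was possible because every group holds different mice, the titles carry no replicate number that differs between them, and no label ties a mouse of one group to a mouse of another.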
